A study of Mus musculus with 8 samples.

Results

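The loci of 3 related transcription factor genes, Gata6, Gata4 and Gata5, were followed in an H3K27ac profile of mouse colon cancer organoids that compared 3 Gata6KO_AKP libraries with 3 AKP control libraries. Their members were the peaks of the shared peak table that overlapped 1 window per gene (mm9): 10.95 to 11.25 Mb of chromosome 18 for Gata6, 63.7 to 63.95 Mb of chromosome 14 for Gata4 and 180 to 180.12 Mb of chromosome 2 for Gata5. Within a window, position alone chose the peaks, but the windows were chosen with earlier results of these data known. This gave 14 of 22731 peaks, with 3 in the Gata6 window, 7 in the Gata4 window and 4 in the Gata5 window, so none of the 3 windows was without a peak.

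GATA factors are zinc finger proteins that bind the DNA motif GATA. GATA4, GATA5 and GATA6 form the subgroup known from heart and endoderm-derived organs, and GATA6 is found in epithelium along the gut, including the colon, whereas GATA4 is known mainly from the proximal intestine. H3K27ac, acetylation of lysine 27 of histone H3, marks active promoters and enhancers. It was measured here by CUT&RUN, in which an antibody guides a nuclease to a chromatin mark and the DNA it releases is sequenced.

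Both groups carry the AKP genotype, which the labels do not spell out, and the knockout libraries carry the Gata6 knockout in addition. The labels list C57Bl6 recipient mice for both groups. They give neither the deleted part of Gata6 nor whether a line was 1 clone or whether replicates were separate cultures, so a p-value here speaks only of how these 6 libraries vary, and part of that variation may be technical. Reads in peaks numbered 5495414 to 6196455 in knockout and 5141856 to 7026388 in control libraries. Levels are given as the reads of a peak scaled to the total of reads in peaks (CPM) after TMM normalization. The acetylation values do not check the knockout labels, because counts over whole peaks do not show whether an exon is missing. DNA missing within a peak would also lower its count, and this was not tested.

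The peaks were placed in windows, not assigned to genes. No mm9 gene annotation was used here, and a window can hold other genes. In the gene order of RefSeq (GRCm38.p6), the protein-coding genes directly before Gata4 are Ctsb (a lysosomal protease), Fdft1 (squalene synthase) and Neil2 (a DNA glycosylase), and those directly before Gata5 are Rps21 (a ribosomal protein), Cables2 and Rbbp8nl. Gata6 stands between Mib1 (a ubiquitin ligase of the Notch pathway) and Rbbp8 (a DNA repair factor), with the non-coding gene Gata6os as its closest neighbour on one side. A value of any window, that of Gata6 included, is therefore a value of that stretch of chromosome and may belong to a neighbour. The peaks of the Gata4 and Gata5 windows all lie before a stretch without a peak at the window's end, 154 kb for Gata4 and 94.9 kb for Gata5. Whether Gata4 or Gata5 itself lies in that stretch, and so has no peak, was not determined.

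The Gata6 window changed at all 3 of its peaks and in opposite directions. The level of the first peak was lower in the knockout, and that of the other 2, across a gap of 149 kb, was higher. The labels do not give the deleted part of Gata6, so whether DNA is missing under the first peak was not tested. Across the 3 windows, 2 peaks were higher and 2 lower in the knockout, that is 4 of 14, and 10 did not pass (quasi-likelihood test of edgeR, adjusted by Benjamini and Hochberg's method over all peaks, adjusted p under 0.05). Among all 22731 peaks, 21.8% were called, 11.6% higher and 10.2% lower, so with so few members the count by itself does not set the windows apart. The groups did not overlap at 5 of the 14 peaks, and at 33.8% of all peaks. The median log2 fold change of knockout over control was -0.0009 for the 14 peaks and -0.0081 for all peaks.

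**Figure D1:**
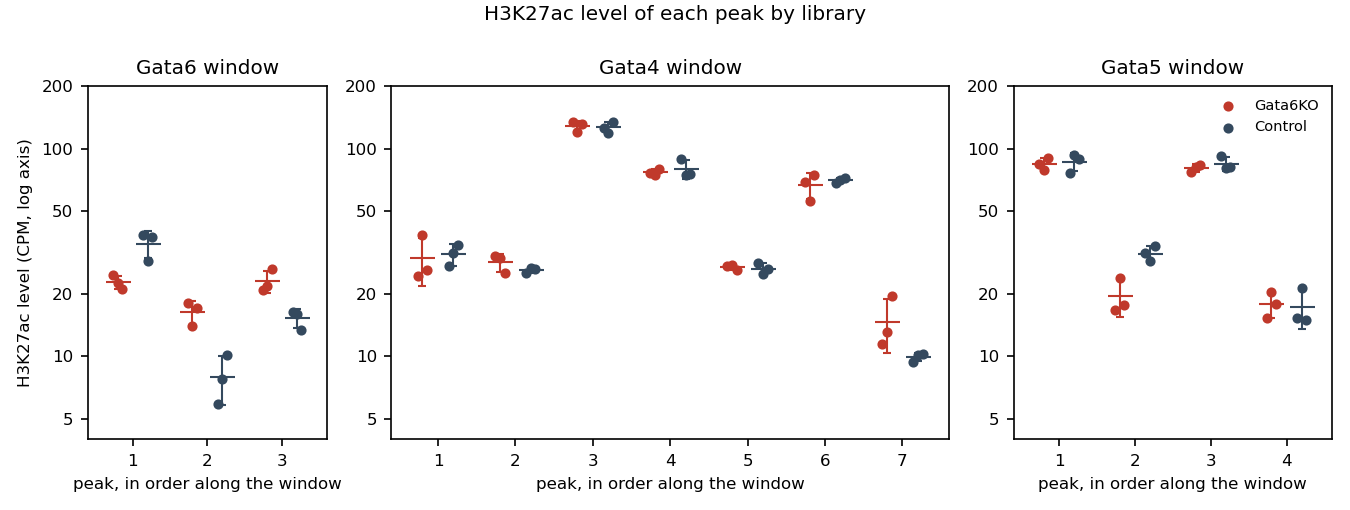
H3K27ac level (CPM, log axis) of each peak of the 3 windows in the 3 Gata6KO libraries (red) and the 3 control libraries (dark blue), with peaks numbered in order along the window and bars giving the mean ± SD. In the Gata6 window, peak 1 lies lower and peaks 2 and 3 lie higher in Gata6KO libraries, while the groups overlap at 6 of the 7 peaks of the Gata4 window and at 3 of the 4 peaks of the Gata5 window.

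Peak 1 of the Gata6 window, from 11051284 to 11055578, was the widest of its 3 peaks at 4295 bp. Its level was 24.6, 22.5 and 21.2 CPM in knockout libraries 1 to 3, against 38.3, 28.8 and 37.5 CPM in control libraries 1 to 3. Every knockout library lay below every control library, although control library 2 stood nearer to the knockout than the other two. The mean was 22.7 ± 1.71 CPM in the knockout and 34.9 ± 5.25 CPM in the control (SD, n = 3 each). The log2 fold change was -0.62 ± 0.16 (SE), a fall by 35.0% of the control level, with an adjusted p of 0.00134 by edgeR's quasi-likelihood test. Of the 689 peaks of chromosome 18, 12 fell at least as far as this one, itself included. Per kb of its width it was weakly acetylated in both groups, at 5.29 CPM per kb in the knockout and 8.12 CPM per kb in the control. Only 2.60% of all peaks had a lower mean level per kb.

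Between peak 1 and peak 2 lay 149 kb without a peak. Peak 2, from 11204905 to 11206409, was narrow (1505 bp) and held few reads: 104, 77 and 106 in knockout libraries, against 34, 40 and 71 in control libraries. In CPM these were 18.1, 14.0 and 17.0 in knockout libraries, against 5.91, 7.79 and 10.2 in control libraries. The lowest knockout library was above the highest control library. The log2 fold change was 1.03 ± 0.31 (SE), 2.04-fold higher in the knockout, with an adjusted p of 0.00778 by edgeR's quasi-likelihood test.

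That gain had the widest error of the 4 calls. Peak 2 belonged to the weakest 10% of peaks by mean level, and those 2273 peaks leaned towards gains as a class, with a median log2 fold change of 0.20 and 15.8% called higher against 1.54% called lower. With scaling offsets that follow the mean count, its log2 fold change was 0.60 and it no longer passed (adjusted p = 0.161). Without control library 1 its log2 fold change was 0.86 (adjusted p = 0.0721), and its adjusted p ranged from 0.00213 to 0.161 over 16 alternatives to the edgeR fit.

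Peak 3, from 11209863 to 11211919, followed peak 2 after 3.45 kb. It stood at 20.9, 21.8 and 26.3 CPM in knockout libraries, against 16.4, 16.0 and 13.5 CPM in control libraries, and the groups did not overlap. Its log2 fold change was 0.60 ± 0.21 (SE), 1.51-fold higher in the knockout, with an adjusted p of 0.025 by edgeR's quasi-likelihood test. The call was lost without knockout library 3 (0.49, adjusted p = 0.158) and without control library 3 (0.51, adjusted p = 0.108), and the adjusted p ranged from 0.014 to 0.158 over 16 alternatives.

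The summed level of the Gata6 window did not separate the groups. It was 63.6, 58.2 and 64.5 CPM in knockout libraries, against 60.5, 52.6 and 61.2 CPM in control libraries. The groups overlapped, and the difference of the log2 sums was 0.10 (exact two-sided permutation test, p = 0.4; 3 libraries against 3 cannot go below 0.1). Without control library 2 the difference was 0.03, and relative to the reads in other peaks of chromosome 18 it was 0.05. With each peak weighted equally, as the mean of log2 levels, it was 0.33 (exact two-sided permutation test, p = 0.1). This weighting gives the weak peak 2 as much weight as peak 1.

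What differed was the make-up of the window. Peak 1 held 38.6%, 38.6% and 32.8% of the window's member reads in knockout libraries, against 63.2%, 54.8% and 61.4% in control libraries. Peak 2 held 26.3% ± 2.25 in the knockout and 13.7% ± 3.55 in the control, and peak 3 held 37.0% ± 3.97 and 26.5% ± 4.21 (knockout and control, SD, n = 3 each). The groups did not overlap for any of the 3 shares. Each gave p = 0.1 in an exact two-sided permutation test, the smallest the design allows, and 0.28 after adjustment over the 14 peaks. These shares sum to 100%, so they are not 3 independent results, and they do not depend on how libraries were scaled. They come from the same reads as the calls above and are no separate support for them.

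**Figure D2:**
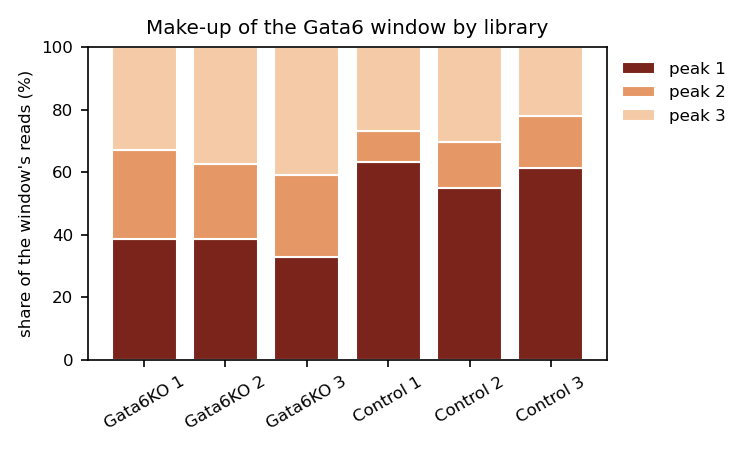
Share of the reads in the 3 peaks of the Gata6 window that fell in each peak, as stacked bars for the 3 Gata6KO libraries on the left and the 3 control libraries on the right. Peak 1 takes 32.8% to 38.6% of the reads in Gata6KO libraries and 54.8% to 63.2% in control libraries.

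The gains of peaks 2 and 3 had a larger counterpart beyond the window. The next peak on chromosome 18, from 11354307 to 11355950 and 104 kb past the window's end, was the only one within 500 kb on that side. It held 19.9, 23.2 and 21.5 CPM in knockout libraries, against 4.52, 6.23 and 5.73 CPM in control libraries. Its log2 fold change of 1.97 ± 0.30 (SE), 3.91-fold higher in the knockout, ranked highest among the 689 peaks of chromosome 18 and was reached by 14 of all 22731 peaks, itself included (adjusted p = 4.35e-09, edgeR's quasi-likelihood test). It also belonged to the weakest 10% of peaks, but kept its call under all 16 alternatives, with log2 fold changes of 1.48, under offsets that follow the mean count, to 2.06.

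On the other side of the Gata6 window the acetylation differed less. The nearest peak, from 10935141 to 10938150 and 11.9 kb before the window, was at 69.6, 64.2 and 78.4 CPM in knockout libraries, against 66.1, 62.7 and 63.6 CPM in control libraries, and did not pass (log2 fold change 0.14 ± 0.11, SE; adjusted p = 0.392, edgeR's quasi-likelihood test). The next one, from 10864912 to 10868282, was 1.27-fold higher in the knockout, at 55.4 ± 4.31 CPM in the knockout and 43.5 ± 2.96 CPM in the control (SD, n = 3 each; adjusted p = 0.0355). It lost this call when any library but knockout library 3 was left out (log2 fold changes of 0.28 to 0.37, adjusted p of 0.0507 to 0.18) and in a fit without chromosome 5 (0.32, adjusted p = 0.0528). Of the 5 peaks within 500 kb outside the window, 2 were called higher and 0 lower. Peak 1 was thus the only peak called lower on this stretch in the edgeR fit. On chromosome 18 as a whole, 16.3% of peaks were called higher and 6.1% lower.

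**Figure D3:**
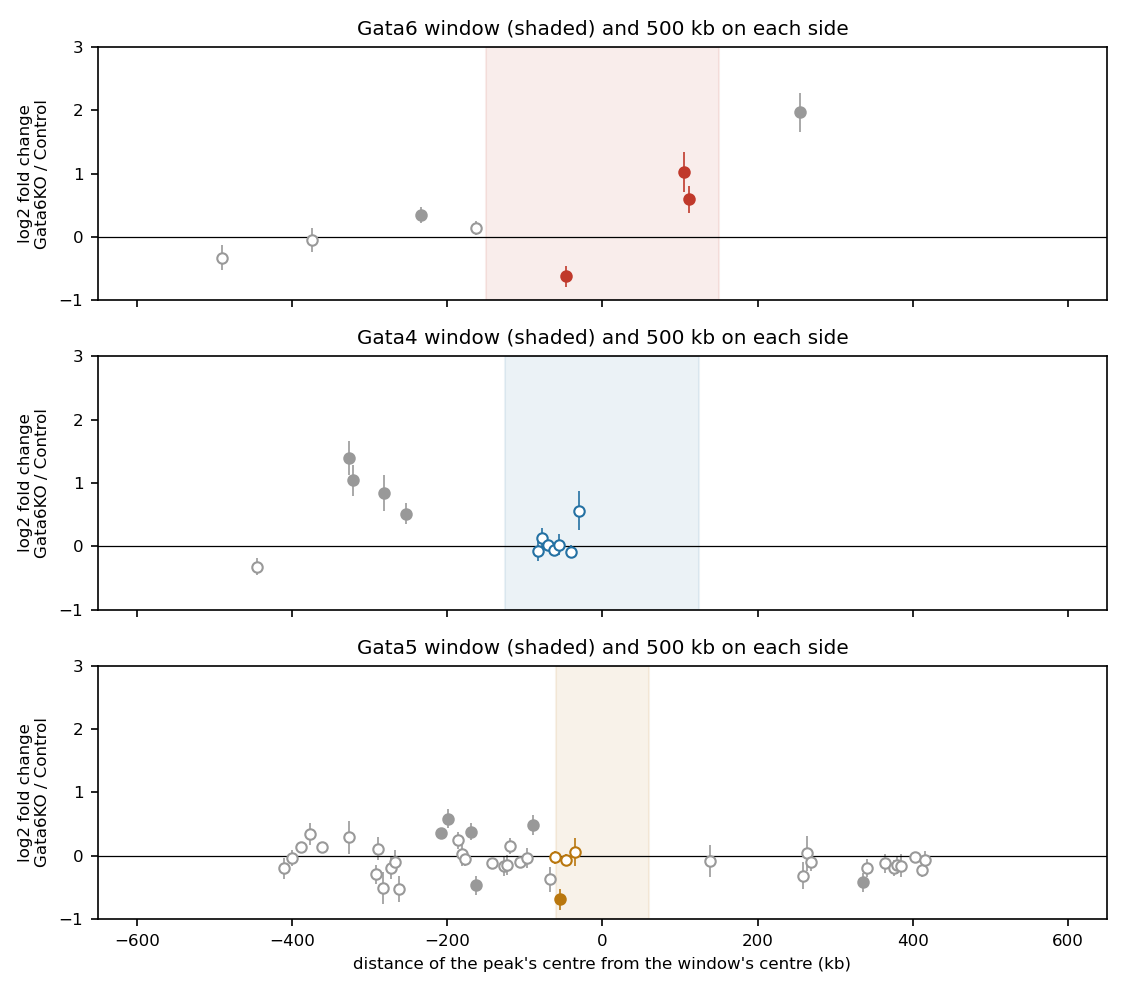
Log2 fold change of Gata6KO over control (± SE) of each peak against the distance of its centre from the window's centre in kb, with the window shaded, coloured points for peaks of the window, grey points for peaks within 500 kb outside it, and filled points for calls at an adjusted p under 0.05. Around Gata6 a single peak was called lower, by 0.62 on the log2 scale, and the 3 peaks after it were called higher, by 0.60 to 1.97. In the Gata4 window no point is filled, and in the Gata5 window 1 is.

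In the Gata4 window no peak passed the test. Its 7 peaks lay close together between 63740869 and 63795862, and the last 154 kb of the window held none, nor did the 500 kb after it. At an unadjusted p under 0.05, 0 of the 7 passed either, and DESeq2 called 0. Their log2 fold changes were -0.08 to 0.57, with a median of 0.024.

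The best covered of them, peak 3 from 63749058 to 63759394, was 10337 bp wide and held 134, 120 and 132 CPM in knockout libraries, against 126, 118 and 135 CPM in control libraries. The ranges lay over one another, with a log2 fold change of 0.02 ± 0.08 (SE) and a 95% interval of -0.13 to 0.18 from the edgeR fit. Peak 4, from 63759918 to 63765578, averaged 76.8 ± 2.59 CPM in the knockout and 79.7 ± 8.37 CPM in the control, and peak 6, from 63780714 to 63787832, averaged 66.6 ± 9.44 CPM in the knockout and 70.5 ± 1.97 CPM in the control (SD, n = 3 each). Their intervals of -0.25 to 0.15 and -0.29 to 0.13 left room for small changes in either direction.

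Peaks 1, 2 and 5 of the Gata4 window were weaker. Peak 1, from 63740869 to 63743450, had 24.4, 38.5 and 26.0 CPM in knockout libraries, against 27.1, 31.6 and 34.4 CPM in control libraries. Its knockout library 2 was above all control libraries, whereas knockout libraries 1 and 3 were below them. Peak 2, from 63746405 to 63748721, averaged 28.4 ± 2.81 CPM in the knockout and 26.0 ± 0.695 CPM in the control (SD, n = 3 each). Peak 5, from 63768002 to 63770464, held 27.3, 27.6 and 26.0 CPM in knockout libraries, against 28.2, 24.9 and 26.2 CPM in control libraries. All 3 of these peaks had overlapping groups.

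Peak 7, from 63793851 to 63795862, was the only one of the Gata4 window whose groups did not overlap. It stood at 11.5, 13.1 and 19.6 CPM in knockout libraries, against 9.39, 10.1 and 10.3 CPM in control libraries, with knockout library 3 the highest. Its log2 fold change of 0.57 ± 0.31 (SE) did not pass (adjusted p = 0.188, edgeR's quasi-likelihood test), and its interval reached from -0.04 to 1.17. It too was among the weakest 10% of peaks. Its log2 fold change was 0.30 without knockout library 3 and 0.16 with offsets that follow the mean count.

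The summed level of the Gata4 window was 373, 360 and 382 CPM in knockout libraries, against 374, 357 and 379 CPM in control libraries. The difference of the log2 sums was 0.0066 (exact two-sided permutation test, p = 0.8). Peak 3 alone held 34.6% ± 1.32 of these reads in the knockout and 34.1% ± 1.20 in the control (SD, n = 3 each), and the shares of the groups overlapped at all peaks but peak 7.

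Outside the Gata4 window, 4 of the 5 peaks within 500 kb were called higher in the knockout, and all 5 lay before the window. Among all peaks 11.6% were called higher, and on chromosome 14 it was 11.3%. Of the 4, 2 belonged to the weakest 10% of peaks by mean level and 1 to the next 10%, classes in which 15.8% and 11.1% were called higher against 1.54% and 3.52% called lower. The part of this lean in the gains was not tested beyond the fit with offsets that follow the mean count, given below for the peaks named. The largest gain was at the peak from 63497447 to 63499307, 201 kb before the window, with 23.3, 21.8 and 19.6 CPM in knockout libraries, against 9.04, 8.18 and 7.45 CPM in control libraries. It was 2.62-fold higher (log2 fold change 1.39 ± 0.27 SE, adjusted p = 6.51e-06 by edgeR's quasi-likelihood test) and kept its call in all 16 alternatives. With offsets that follow the mean count, its log2 fold change was 1.11. The nearest peak, from 63570590 to 63574123, 126 kb before the window, was 1.43-fold higher, at 33.9 ± 4.20 CPM in the knockout and 23.6 ± 4.84 CPM in the control (SD, n = 3 each). The next, from 63542392 to 63543925, was 1.79-fold higher, at 17.4 ± 1.76 CPM in the knockout and 9.75 ± 2.51 CPM in the control (SD, n = 3 each). The first of these 2 calls was lost without knockout library 1 (log2 fold change 0.41) or control library 1 (0.36). It was kept with offsets that follow the mean count (0.545). The second was lost without knockout library 2 (0.77) or control library 3 (0.63), and with offsets that follow the mean count (0.52).

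In the Gata5 window, 1 of 4 peaks was lower in the knockout and the other 3 did not pass. The 4 peaks lay between 179993690 and 180025063, the first of them reaching over the window's start, and the last 94.9 kb of the window held none.

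Peak 2 of the Gata5 window, from 180004158 to 180007407, was the one that fell. It held 16.7, 23.9 and 17.6 CPM in knockout libraries, against 31.3, 28.6 and 33.8 CPM in control libraries. All knockout libraries lay below all control libraries, with knockout library 2 nearest to them. The mean was 19.4 ± 3.93 CPM in the knockout and 31.2 ± 2.59 CPM in the control (SD, n = 3 each). The log2 fold change was -0.69 ± 0.17 (SE), a fall by 38.1% of the control level, with an adjusted p of 7.44e-04 by edgeR's quasi-likelihood test. On chromosome 2, where 7.33% of peaks were called lower, 21 of 1828 fell at least as far, itself included.

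The peaks on either side of it did not pass the test. Peak 1, from 179993690 to 180003359, ended 0.799 kb before it and held 84.6, 79.1 and 90.3 CPM in knockout libraries, against 76.5, 92.9 and 89.4 CPM in control libraries. Peak 3, from 180010254 to 180016402, had 77.0, 81.6 and 83.4 CPM in knockout libraries, against 92.2, 80.2 and 81.3 CPM in control libraries. In both, the groups overlapped, and the log2 fold changes were -0.03 ± 0.10 and -0.07 ± 0.10 (SE). Their intervals of -0.22 to 0.17 and -0.26 to 0.13 did not reach the estimate of peak 2. Peak 4, from 180023365 to 180025063, was weak, at 17.9 ± 2.50 CPM in the knockout and 17.2 ± 3.66 CPM in the control (SD, n = 3 each), with an interval of -0.38 to 0.50. Peak 2 held 9.58% ± 1.82 of the window's member reads in the knockout and 14.3% ± 1.31 in the control (SD, n = 3 each; exact two-sided permutation test, p = 0.1, and 0.28 after adjustment over the 14 peaks).

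The summed level of the Gata5 window was 194, 205 and 209 CPM in knockout libraries, against 215, 223 and 219 CPM in control libraries. The groups did not overlap, and the difference of the log2 sums was -0.11 (exact two-sided permutation test, p = 0.1, the smallest possible). With the window widened by 50 kb on each side it was -0.08 (exact two-sided permutation test, p = 0.3), and with each peak weighted equally -0.18 (p = 0.1).

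The Gata5 window stood in a stretch far richer in peaks than the other two, with 27 peaks in the 500 kb before it and 13 in the 500 kb after it. Of these 40, 4 were called higher and 2 lower, shares no larger than the 11.6% and 10.2% among all peaks or the 11.8% and 7.33% on chromosome 2. The nearest before it, from 179990711 to 179992902, had 22.6, 13.8 and 19.2 CPM in knockout libraries, against 24.7, 24.2 and 23.5 CPM in control libraries, and did not pass (log2 fold change -0.37 ± 0.19, SE; adjusted p = 0.156, edgeR's quasi-likelihood test). The second, from 179968787 to 179971556, was 34.8 ± 2.49 CPM in the knockout and 24.7 ± 4.48 CPM in the control (SD, n = 3 each). Its log2 fold change of 0.49 was called, but not without knockout library 1 (0.44) or control library 2 (0.37). The largest change called was 0.58 ± 0.15 (SE), at the peak from 179859855 to 179863272. The 2 nearest after the window, from 180197584 to 180199907 and from 180317080 to 180319968, had log2 fold changes of -0.09 ± 0.25 and -0.31 ± 0.21 (SE) and did not pass.

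**Figure D4:**
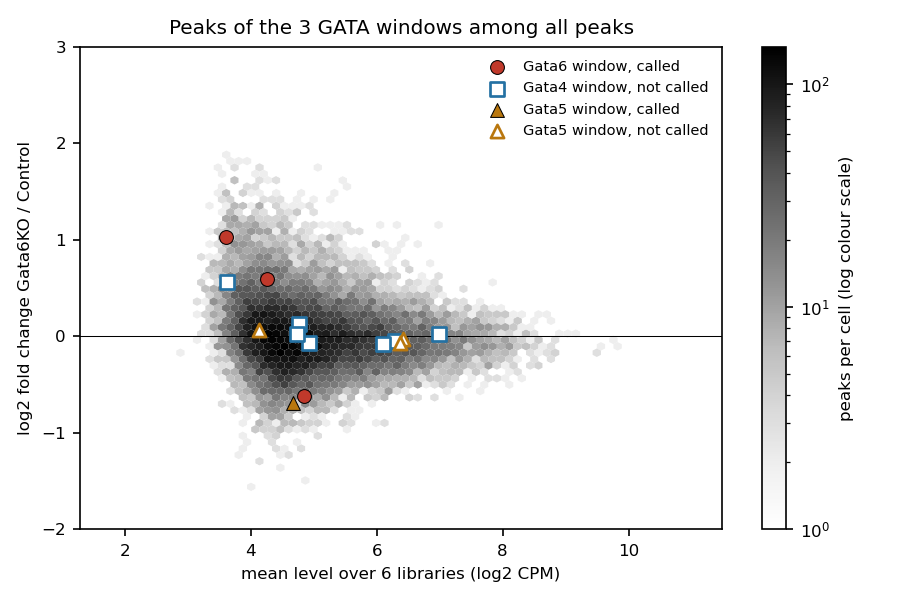
Log2 fold change of Gata6KO over control against the mean level over 6 libraries (log2 CPM) for all 22731 peaks (grey, darker where more peaks lie), with the 14 peaks of the 3 windows on top, filled where called. The called peaks have log2 fold changes of -0.69 to 1.03, within the range of peaks of like level, and the best covered peaks of the Gata4 and Gata5 windows lie near 0.

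The windows were also set against one another within each library, which does not depend on scaling. The log2 ratio of the summed level of the Gata6 window to that of the Gata5 window was -1.71 ± 0.10 in the knockout and -1.92 ± 0.14 in the control (SD, n = 3 each), a difference of 0.21. For Gata6 to Gata4 the difference was 0.09, and for Gata4 to Gata5 it was 0.12. In each of the 3 pairs, p was 0.1 in the exact two-sided permutation test, also after adjustment over the 3, and could give no less. Without control library 2 the differences were 0.13 for Gata6 to Gata5 and 0.05 for Gata6 to Gata4. With each peak weighted equally they were 0.51 for Gata6 to Gata5, 0.27 for Gata6 to Gata4 and 0.24 for Gata4 to Gata5, each again at p = 0.1 in the exact test. So no window was shown to differ from another at 0.05. Equal weighting gives weak peaks full weight. Among them are peak 2 of the Gata6 window and peak 7 of the Gata4 window, from the weakest 10% of peaks, which leaned towards gains. The part of that lean in these differences was not tested. The 3 pairs share their windows and are not independent.

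The 14 peaks differed widely in width and level. Width ran from 1505 to 10337 bp. The mean level per kb in the knockout ran from 5.29 CPM per kb at peak 1 of the Gata6 window to 13.6 CPM per kb at peak 4 of the Gata4 window, and in the control from 4.94 CPM per kb at peak 7 of the Gata4 window to 14.1 CPM per kb at that same peak 4. The 14 peaks had a median of 9.97 CPM per kb over the 6 libraries, against 10.7 for all peaks. Peaks 2 and 3 of the Gata6 window were at 10.9 and 11.2 CPM per kb in the knockout and at 5.29 and 7.42 CPM per kb in the control. Over the 6 libraries, 12.4% of all peaks had a lower level per kb than peak 2, and 28.4% a lower one than peak 3. Peaks covered 2.62% of the Gata6 window, 13.0% of the Gata4 window and 12.1% of the Gata5 window.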

How the data were processed

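The deposited table holds raw counts of reads per peak for 6 H3K27ac libraries, all over the same peak set, and the authors had not normalized them. The H3K4me3 and IgG libraries of control organoids were not analysed here, so no background was subtracted. Per the submitters' processing notes, the build was mm9 and the tools included SEACR, bedtools, SAMtools, Picard and Bowtie, with no role or version named. Positions are those of the deposited table, and the gene table (GRCm38.p6) served only for gene order.

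All 22731 peaks passed edgeR's expression filter. They were fitted with edgeR 4.0.16 in R 4.3.3 (TMM, quasi-likelihood, group as the only term, two-sided, Benjamini-Hochberg over all peaks), and SEs and 95% intervals came from that fit. Since levels are relative to all reads in peaks, a genome-wide shift would be missed. Sums, ratios and shares per library were compared by exact permutation in NumPy 2.4.6. All 14 peaks in the windows are named. Of peaks within 500 kb outside a window, the 2 nearest on each side and the called one with the largest change are named. The windows and tests were chosen with earlier results of these data known. Alternatives were DESeq2 1.42.0, other scalings and filters, halved counts, a replicate block, other window limits and each library left out. A planned list of other GATA and gut genes, and markers of the organoids' identity, could not be placed without an mm9 annotation and are not used here.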

Additional observations from a re-analysis of the deposited data

How the results depend on the processing

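Of the 64 values of the 4 called peaks under 16 alternatives, 60 kept their call and 0 changed direction. The fit without a filter repeats the main fit, because all 22731 peaks passed the filter, so its agreement was given in advance. A filter at a mean of 50 reads kept 22709 peaks and was nearly the same fit. The 4 lost calls were those of peaks 2 and 3 of the Gata6 window given above. Peaks called higher in the windows numbered 2, but 1 with offsets that follow the mean count (loess, span 0.3), 1 at an adjusted p under 0.01, 1 to 2 with a library left out, and 3 with the windows widened by 50 kb, which takes in more peaks; peaks called lower were 2 in all 19 alternatives. In the whole table, 2320 peaks were lower, or 1478 at an adjusted p under 0.01. The cause of these shifts was not tested, except that a stricter threshold lets fewer peaks pass.

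None of the 160 values of the 10 other peaks passed, and 17 changed sign near 0. With libraries left out, log2 fold changes ran from -0.303 to 0.0466, -0.0195 to 0.0736, -0.0968 to 0.0409, -0.0115 to 0.0782 and -0.172 to 0.0252 at peaks 1, 3, 4, 5 and 6 of the Gata4 window, and from -0.100 to 0.0277, -0.103 to 0.0014 and -0.0396 to 0.242 at peaks 1, 3 and 4 of the Gata5 window. With the loess offsets, peaks 1 and 4 of the Gata5 window were at 0.0074 and -0.0205. The difference of the summed Gata4 level ran from -0.0194 to 0.0305. Shares with libraries left out, added after the data were seen as were the alternatives for peaks outside the windows, differed by -1.73 to 0.358, -0.240 to 1.14, -1.77 to 0.298 and -0.0857 to 0.353 percentage points at peaks 1, 3, 4 and 5 of the Gata4 window and by -0.137 to 3.29 at peak 3 of the Gata5 window. Of peaks named outside the windows, that from 180197584 changed sign (-0.292 to 0.0578 with libraries left out).

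Same-numbered libraries did not deviate together (correlations of 0.00591 to 0.0671), and a replicate block changed no call in the windows (2 higher, 2 lower; 2704 higher and 2409 lower in the table); its sign-flip test of sums cannot go below p = 0.25. With 34 to 71 reads per control library at peak 2 of the Gata6 window, depth limits its fold change. Most counts in the windows are even numbers, and whether both ends of a DNA fragment were counted is not known here. If they were, independent fragments are fewer than the reads given. With halved counts the log2 fold change of that peak was 1.01 (adjusted p = 0.00907, edgeR's quasi-likelihood test).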
